A study of Mus musculus with 6 samples.

Results

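The 10 genes described here encode structural proteins of meiotic chromosomes. They are Sycp1, Sycp2, Sycp3, Syce1, Syce2 and Tex12 of the synaptonemal complex, and the meiosis-specific cohesin subunits Smc1b, Stag3, Rec8 and Rad21l. They were chosen by gene symbol, with earlier results of these data known. The other gene lists below were chosen with those results known too. Counts set beside the share of all genes therefore describe these genes and do not test them as groups. All 10 were measured, among 19937 genes that had a probe set assigned to 1 gene. Mouse embryos of strain CD1 were taken at E11.5, an embryonic day, and from these the AGM region was dissected, the tissue around the dorsal aorta, the gonad and the mesonephros. Total RNA was measured. Cells with surface CD31 and without CD45 and Ter119 were sorted into a c-kit-positive population (3 arrays) and a c-kit-negative population (3 arrays), c-kit being the receptor for stem cell factor. No genetic change or treatment was given for either population. The labels call the replicates biological but do not say how many embryos each pooled, so the p-values rest on how far these arrays spread. Values are log2 signals, and 1 unit is a 2-fold change.

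Of the 10 genes 6 were higher in c-kit-positive cells and none was lower (limma, adjusted p under 0.05 over all genes, background 2.71% of genes higher and 4.7% lower). The rises were those of Sycp3 (5.59-fold), Smc1b (4.05-fold), Stag3 (3.05-fold), Syce2 (2.14-fold), Sycp1 (2.10-fold) and Syce1 (1.89-fold). Sycp2 and Tex12 did not pass, at 1.70-fold and 1.69-fold higher means. The kleisin subunits Rec8 and Rad21l did not pass either, at 1.18-fold and 1.16-fold. The 5 cohesin subunits of somatic cells had no call in either direction. In sorted bulk samples, fewer cells of a type and less RNA per cell cannot be told apart.

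In meiosis, replicated chromosomes are organised into loops along a protein axis built on cohesin rings, and homologous partners are then zipped together by the synaptonemal complex. SYCP2 and SYCP3 coat the axis as lateral elements, SYCP1 spans the gap as transverse filaments, and SYCE1, SYCE2 and TEX12 belong to the central element. In meiotic cohesin SMC1B can take the place of SMC1A, STAG3 that of STAG1 or STAG2, and the kleisins REC8 and RAD21L that of RAD21. The AGM region includes the genital ridges, which primordial germ cells, themselves bearers of c-kit and CD31, colonise before any of them enters meiosis. In somatic cells several of these genes are known to be held silent by promoter DNA methylation and by the repressor E2F6 with its partners MGA and MAX.

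The promoters are shown because E2F6 binds E2F-type sites and MGA with MAX binds the E-box. The motifs were searched because these repressors are already known to act on several of the members. Shares above those of all promoters were therefore likely in advance. They describe the windows and do not test the members as a group. RefSeq promoters of all 10 genes were available on GRCm38.p6, each from 250 bases before to 50 bases after an annotated start, with a second start for Syce2. An E2F-type motif, TTCCCGC on either strand, was present for 5 of the 10 genes, against 4.60% of all 32851 promoters in the table. The E-box CACGTG, which reads the same on both strands, was also present for 5 genes, against 7.15% of all promoters. Both motifs were found for 4 genes (Sycp3, Syce2, Tex12 and Stag3), against 0.457% of all promoters, and no match overlapped another. Sycp1 held the E-box only and Smc1b the E2F-type motif only. At least 1 of the motifs was present for 6 genes, against 11.3% of all promoters, and Sycp2, Syce1, Rec8 and Rad21l held neither. The members were counted by gene over any start, whereas the background counts single promoters. Both motifs contain a CpG, and the members' windows were richer in CpG than all promoters (ratios below). The background was not matched for CpG content, so these shares do not separate the motifs from base composition. The 180 bases before the start are printed for 5 genes with a motif and for Rec8, which had none. Capitals mark the matches. The coordinates are chr10:88459407-88459586 (plus strand) for Sycp3, chr9:50561269-50561448 (minus strand) for Tex12, chr3:102936101-102936280 (minus strand) for Sycp1, chr15:85131958-85132137 (minus strand) for Smc1b, chr5:138280329-138280508 (plus strand) for Stag3 and chr14:55617986-55618165 (plus strand) for Rec8. Each sequence reads 5′ to 3′ along its gene.
Sycp3: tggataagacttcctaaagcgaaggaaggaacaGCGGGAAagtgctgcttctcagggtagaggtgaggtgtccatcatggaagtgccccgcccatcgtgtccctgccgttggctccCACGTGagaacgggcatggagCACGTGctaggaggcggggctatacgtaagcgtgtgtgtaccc
Tex12: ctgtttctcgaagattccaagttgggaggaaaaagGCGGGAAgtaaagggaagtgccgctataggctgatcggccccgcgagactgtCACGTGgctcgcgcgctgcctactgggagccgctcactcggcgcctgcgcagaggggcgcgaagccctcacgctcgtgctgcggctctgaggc
Sycp1: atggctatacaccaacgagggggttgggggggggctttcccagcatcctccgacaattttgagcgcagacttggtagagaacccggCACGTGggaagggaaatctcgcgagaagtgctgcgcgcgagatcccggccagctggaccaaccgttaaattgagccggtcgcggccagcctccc
Smc1b: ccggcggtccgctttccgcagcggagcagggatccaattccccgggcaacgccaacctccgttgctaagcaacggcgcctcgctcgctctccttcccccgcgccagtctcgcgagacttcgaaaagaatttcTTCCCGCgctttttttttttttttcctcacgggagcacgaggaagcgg
Stag3: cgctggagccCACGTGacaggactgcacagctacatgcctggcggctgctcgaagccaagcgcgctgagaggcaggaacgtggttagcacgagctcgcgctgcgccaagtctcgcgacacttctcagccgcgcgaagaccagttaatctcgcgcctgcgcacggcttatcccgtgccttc
Rec8: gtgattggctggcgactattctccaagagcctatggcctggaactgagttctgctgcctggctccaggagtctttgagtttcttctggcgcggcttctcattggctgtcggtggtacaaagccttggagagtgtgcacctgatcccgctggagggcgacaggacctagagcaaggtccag
Sycp3 carried the E2F-type motif 147 bases before its start and an E-box at both 64 and 43 bases before it. In Tex12 the motifs lay 145 and 93 bases before the start, and in Smc1b the E2F-type motif lay at 48 bases. The E2F-type match of Stag3 began 3 bases before the start and ran past it, so it is not in the printed stretch. In Syce2 both motifs lay before the downstream start and none was in the window of the upstream one. A match describes these letters and is not evidence of binding.

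**Figure D1:**
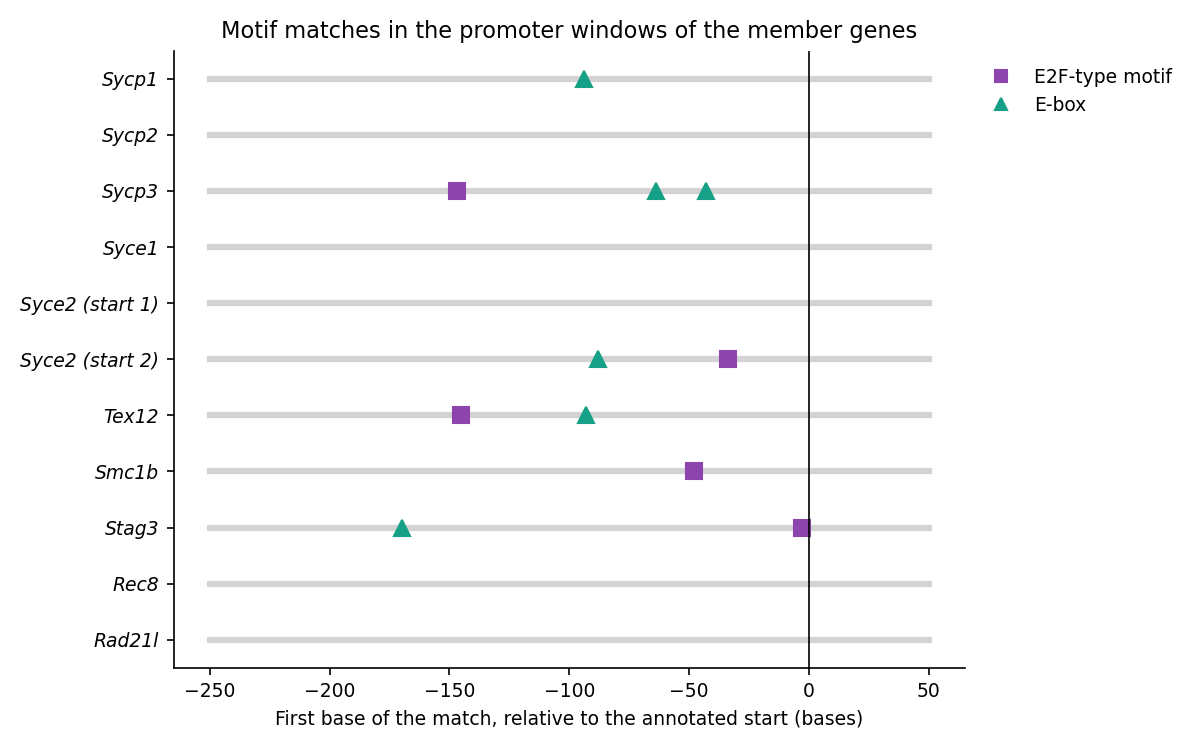
Positions of motif matches in the 11 promoter windows of the 10 member genes; the x axis is the distance of the first matching base from the annotated start in bases, squares are E2F-type motifs and triangles E-boxes. Sycp3, Syce2, Tex12 and Stag3 hold both kinds, and Sycp2, Syce1, Rec8 and Rad21l hold neither.

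The promoters also differed in CpG content. The ratio of observed to expected CpG ran from 0.317 (Rad21l) to 1.08 (Smc1b) over the members' windows, with a median of 0.716 against 0.384 over all promoters. Stag3 stood next to Smc1b at 1.06, and Sycp1, Tex12 and the downstream Syce2 window were at 0.874, 0.915 and 0.962. Sycp3 was at 0.666. Of the windows without a motif, Rec8 was at 0.716, the upstream Syce2 window at 0.704, Syce1 at 0.625 and Sycp2 at 0.363, beside Rad21l at 0.317. Rad21l also had the lowest share of G and C, 29.0%. No methylation was measured in these samples.

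Among the lateral element genes, Sycp3 (probe set 10365627) changed most. Its values were 7.63, 7.32 and 7.48 in c-kit-positive replicates 1, 2 and 3, against 5.38, 4.79 and 4.80 in c-kit-negative replicates 1, 2 and 3. The lowest c-kit-positive array thus stood 1.94 above the highest c-kit-negative one. The difference was 2.48 ± 0.19 (log2, SE, n = 3 each, adjusted p = 0.000188, limma), the largest rise among the 540 genes called higher. Sycp2 (probe set 10490304), the partner of Sycp3 in the lateral element, was at 4.22, 3.46 and 3.98 in c-kit-positive cells and at 3.15, 2.97 and 3.25 in c-kit-negative cells. All c-kit-positive values again lay above all c-kit-negative ones, but replicate 2 was only 0.21 above the highest of these. The difference of 0.76 did not pass (95% interval 0.29 to 1.23, adjusted p = 0.0632, limma). Of the 6 fits that each left out 1 array, 1 passed, the one without c-kit-positive replicate 2, which was the lowest c-kit-positive array (difference 0.97, adjusted p = 0.0189, limma). In the other 5 fits the difference of Sycp2 was 0.59 to 0.82 and the adjusted p 0.11 to 0.175 (limma). Apart from c-kit-positive replicate 1, the Sycp2 values lay below the lower quartile of their arrays (4.14 to 4.28 over the 6 arrays). Signals this dim cannot be told from array background here.

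The transverse filament gene Sycp1 (probe set 10500754) had values of 4.47, 4.29 and 4.27 in c-kit-positive cells and of 3.15, 3.44 and 3.24 in c-kit-negative cells. The 2 populations were 0.83 apart at their nearest arrays. The difference was 1.07 ± 0.14 (log2, SE, n = 3 each, adjusted p = 0.00295, limma). The c-kit-negative values lay below the lower quartile of their arrays, which was 4.14 to 4.28 over the 6 arrays. The table carries no detection calls, so such dim signals cannot be told from array background.

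Of the 3 central element genes 2 rose. Syce2 (probe set 10573451) was at 10.49, 10.13 and 10.55 in c-kit-positive cells, against 9.23, 9.35 and 9.29 in c-kit-negative cells. The c-kit-negative arrays lay close together, with an SD of 0.06, and the difference was 1.10 ± 0.15 (log2, SE, n = 3 each, adjusted p = 0.00387, limma). Syce1 (probe set 10568968) was at 6.18, 5.75 and 5.999 in c-kit-positive cells and at 5.26, 5.01 and 4.90 in c-kit-negative cells. Its populations did not overlap, and the difference was 0.92 ± 0.17 (log2, SE, adjusted p = 0.0131, limma). That call was lost narrowly without c-kit-negative replicate 3 (difference 0.84, adjusted p = 0.0502, limma). Tex12 (probe set 10593347), whose protein pairs with SYCE2, was at 3.63, 2.89 and 3.93 in c-kit-positive cells and at 2.84, 2.73 and 2.60 in c-kit-negative cells. Replicates 1 and 3 of the c-kit-positive cells were above the c-kit-negative values, whereas replicate 2 exceeded the highest of these by 0.04. Every Tex12 value lay below the lower quartile of its array (4.14 to 4.28), too dim to be told from array background. The difference of 0.75 did not pass (95% interval 0.18 to 1.33, adjusted p = 0.124, limma). It passed in 1 of the 6 fits that left out 1 array, again the one without the low c-kit-positive replicate 2 (difference 1.05, adjusted p = 0.0144, limma). In the other 5 fits the difference of Tex12 was 0.53 to 0.81 and the adjusted p 0.205 to 0.273 (limma).

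**Figure D2:**
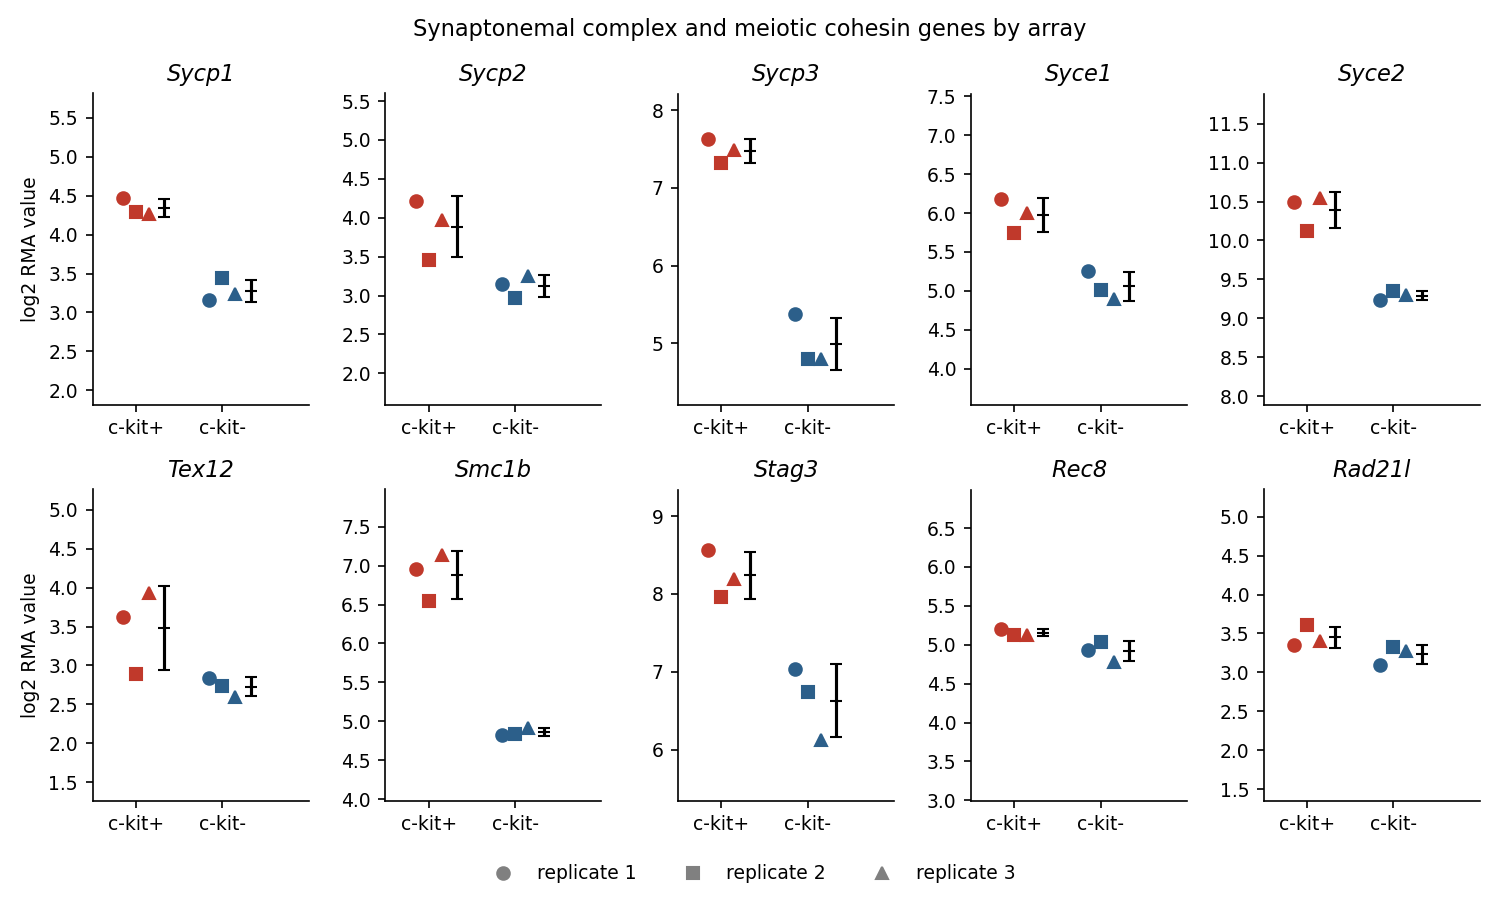
Values of the 10 member genes on each array (log2 RMA, y axes of equal span but different start), c-kit-positive arrays left in red and c-kit-negative arrays right in blue; bars are mean ± SD of 3 arrays. The populations lie far apart for Sycp3, Smc1b and Stag3 and nearly touch for Tex12, Rec8 and Rad21l.

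Of the 4 meiotic cohesin subunits 2 rose. Smc1b (probe set 10431182), the SMC subunit, was at 6.96, 6.54 and 7.14 in c-kit-positive cells, against 4.82, 4.84 and 4.92 in c-kit-negative cells. The c-kit-negative arrays were the most alike for this gene (SD 0.05), and the nearest arrays of the populations were 1.63 apart. The difference was 2.02 ± 0.17 (log2, SE, n = 3 each, adjusted p = 0.000303, limma). Stag3 (probe set 10526797), which encodes the STAG subunit of meiotic rings, was at 8.56, 7.96 and 8.19 in c-kit-positive cells and at 7.03, 6.74 and 6.12 in c-kit-negative cells. Its c-kit-negative arrays spread the most of any member (SD 0.47), and the difference was 1.61 ± 0.25 (log2, SE, n = 3 each, adjusted p = 0.00696, limma).

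The kleisin that closes the ring was measured through Rec8 (probe set 10415332) and Rad21l (probe set 10488565). Rec8 was at 5.21, 5.13 and 5.13 in c-kit-positive cells and at 4.93, 5.04 and 4.78 in c-kit-negative cells, which did not overlap but were only 0.09 apart at the nearest. Its difference of 0.24 had a 95% interval of -0.07 to 0.54 (adjusted p = 0.359, limma). Rad21l was at 3.35, 3.60 and 3.40 in c-kit-positive cells and at 3.10, 3.32 and 3.27 in c-kit-negative cells, a gap of 0.02, with a difference of 0.22 (95% interval -0.10 to 0.54, adjusted p = 0.427, limma). A second Rad21l probe set (10488567) gave a difference of 0.03. Both Rad21l probe sets lay below the lower quartile of every array (4.14 to 4.28). Such dim signals cannot be told from array background, so the small difference does not show that Rad21l RNA was unchanged. The upper bounds of both kleisins (0.54 each) lay below the lower bounds of Smc1b (1.62) and Stag3 (1.03). The difference between these genes was not itself tested.

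**Figure D3:**
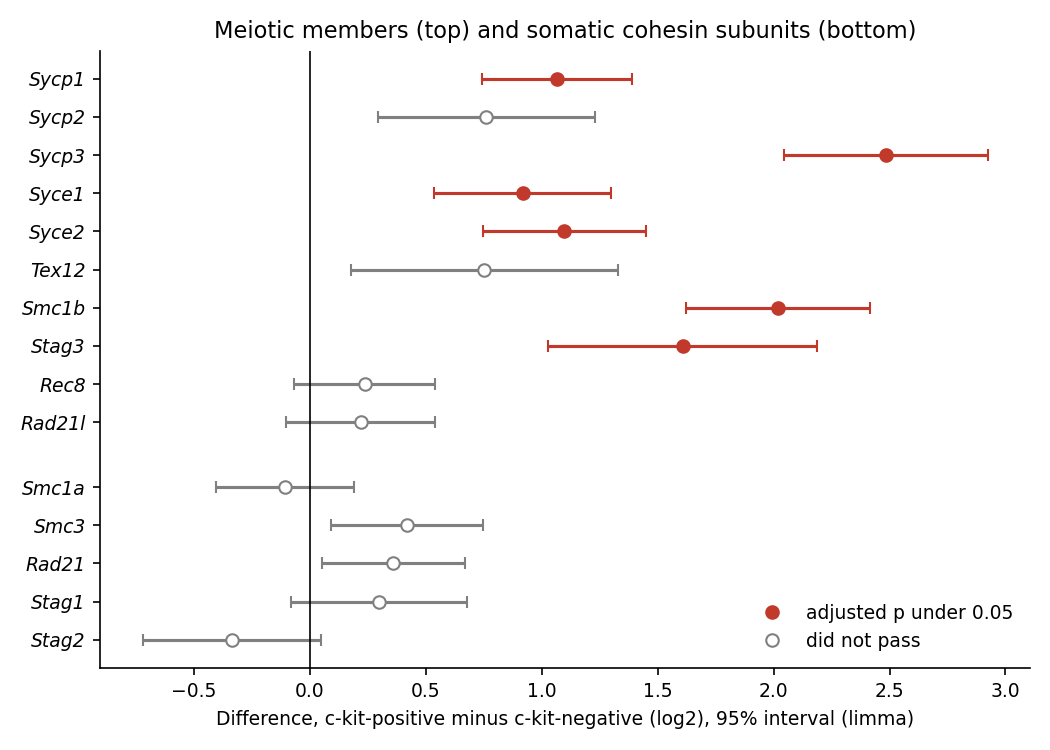
Differences between c-kit-positive and c-kit-negative cells (log2, x axis) with 95% intervals from limma for the 10 members above and 5 somatic cohesin subunits below; filled points passed adjusted p under 0.05. The intervals of Smc1b and Stag3 lie to the right of those of Rec8, Rad21l and all somatic subunits.

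For all 10 members the 3 c-kit-positive values exceeded the 3 c-kit-negative ones, a separation found in this direction for 16.2% of all genes. The members' median difference was 0.99, against 0.07 over all genes tested. Within the c-kit-positive cells, replicate 2 was the lowest array for 7 of the 10 members (all but Sycp1, Rec8 and Rad21l), whereas it was the lowest for 33.2% of all genes. It was also the lowest for 15 of 28 primordial germ cell markers and for 3 of 16 endothelial markers. Averaged over the members, the arrays stood at 6.07, 5.71 and 6.01 for the c-kit-positive population, against 4.89, 4.82 and 4.72 for the c-kit-negative one. Tex12 varied most among the c-kit-positive arrays (SD 0.54) and Rec8 least (SD 0.05).

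**Figure D4:**
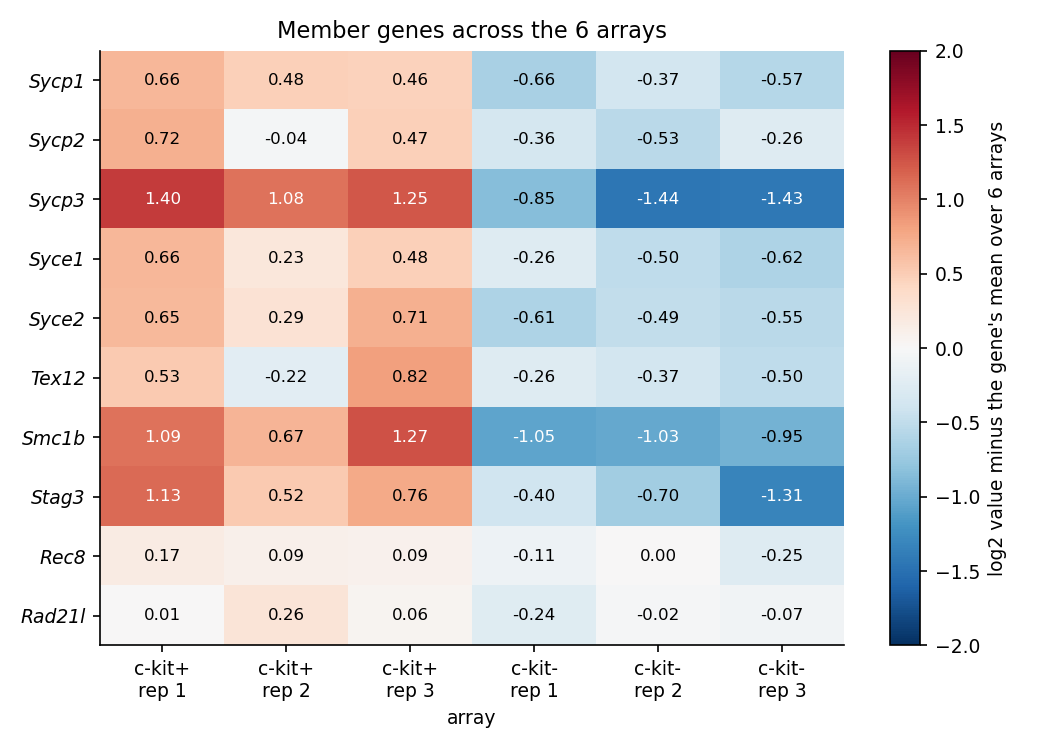
Values of each member on the 6 arrays after subtracting the gene's own mean (log2; red above and blue below the mean). The c-kit-positive replicate 2 column is the lowest c-kit-positive column for 7 of the 10 genes, and the rows of Rec8 and Rad21l are pale throughout.

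The somatic counterparts of the meiotic cohesin subunits were examined on the same arrays. None of the 5 core subunits passed limma's threshold, and Smc3 and Rad21 had unadjusted p under 0.05; both passed narrowly with a trended robust prior (adjusted p = 0.0396 and 0.0494, limma). Smc1a, which pairs with SMC3 in somatic rings, averaged 10.94 ± 0.06 in the c-kit-positive population, against 11.05 ± 0.11 in the c-kit-negative one (n = 3 each, SD, adjusted p = 0.708, limma). Smc3, which somatic and meiotic rings share, averaged 11.24 ± 0.14 in the c-kit-positive population, against 10.82 ± 0.13 in the c-kit-negative one (adjusted p = 0.134, limma). The kleisin Rad21 differed by 0.36 (adjusted p = 0.167, limma). Stag1 and Stag2, alternative STAG subunits, differed by 0.30 and -0.34 (adjusted p = 0.357 and 0.304, limma).

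The log2 difference between a meiotic subunit and its somatic counterpart was then compared between arrays, as a change only, because probe sets are not on a common scale. Smc1b minus Smc1a was -4.00, -4.34 and -3.85 on c-kit-positive arrays and -6.11, -6.23 and -6.22 on c-kit-negative arrays. Smc1b thus rose by 2.12 ± 0.15 (log2, SE) relative to Smc1a, and the populations did not overlap. Stag3 gained 1.31 ± 0.44 relative to Stag1 and 1.94 ± 0.39 relative to Stag2, again without overlap. Rec8 and Rad21l moved by -0.12 ± 0.16 and -0.14 ± 0.16 relative to Rad21, with overlapping populations. The Rad21l values were too dim to be told from array background. In exact two-sided permutation tests the 3 pairs that did not overlap had p = 0.1, the smallest that 3 against 3 arrays can give, and an adjusted p of 0.167 over the 5 pairs. The Rec8 and Rad21l pairs had exact p = 0.7 and 0.5.

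Further components of the chromosome axis and the synaptonemal complex were taken from a list of 17 genes, 13 of them measured. Of these 5 rose and none fell (median 0.65). They were Ccnb1ip1, a regulator of crossovers (4.98-fold), Hormad2 (2.15-fold) and Hormad1 (1.78-fold), which bind unsynapsed axes, 4930447C04Rik, a central element component also known as Six6os1 (2.39-fold), and Shoc1, a crossover factor named after its value was seen (difference 0.74). Dropping c-kit-positive replicate 3, or any single c-kit-negative array, left 3 rises, and dropping c-kit-positive replicate 1 left 2. Ccnb1ip1 and Hormad2 passed in all 6 such fits, 4930447C04Rik in 4, and Hormad1 and Shoc1 in 1 each. The telomere attachment genes Terb1, Terb2 and Majin, also named after their values were seen, differed by 0.30, 0.46 and 0.51 and did not pass.

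Of 18 measured genes of meiotic entry and recombination 5 rose and none fell (median 0.29). Rec114 (3.10-fold) and Mei4 (difference 0.58, named after its value was seen) assist the formation of meiotic DNA breaks. Psmc3ip (2.03-fold) and Hsf2bp (1.79-fold) act in strand exchange, and Zcwpw1 (2.02-fold) reads histone marks at recombination sites. Dropping replicate 1 of either population or replicate 2 of the c-kit-negative cells left 2 rises, and dropping replicate 2 or 3 of the c-kit-positive cells left 3. Rec114 and Psmc3ip passed in all 6 fits that left out 1 array, Hsf2bp and Zcwpw1 in 2 each, and Mei4 in 0. Stra8, the inducer of meiotic entry, and Spo11, which cuts DNA to start recombination, differed by 0.24 and -0.01 (adjusted p = 0.528 and 0.982, limma), and Dmc1, the meiotic recombinase, differed by 0.43 (adjusted p = 0.513, limma). These 3 genes were named after their values were seen.

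Of 14 measured regulators of cohesin 2 rose and none fell (median 0.32). Esco2, an acetyltransferase that makes cohesin hold sister chromatids, was 2.03-fold higher, and Sgo2a, which protects centromeric cohesin in meiosis, was 1.82-fold higher. Esco2 alone passed when replicate 1 of either population or replicate 3 of the c-kit-positive cells was dropped. Among 18 genes of the repressors and methylating enzymes that keep meiotic genes silent in somatic cells, 1 rose and none fell (median 0.12), a share near the 2.71% of all genes called higher. It was Dnmt3b, a DNA methyltransferase (2.10-fold, adjusted p = 0.0164, limma), a call that was lost when replicate 1 or 3 of the c-kit-negative cells was dropped. E2f6, Mga and Max, named for the motifs searched and after their values were seen, differed by -0.10, 0.58 and 0.20 and did not pass (adjusted p = 0.858, 0.0959 and 0.422, limma).

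**Figure D5:**
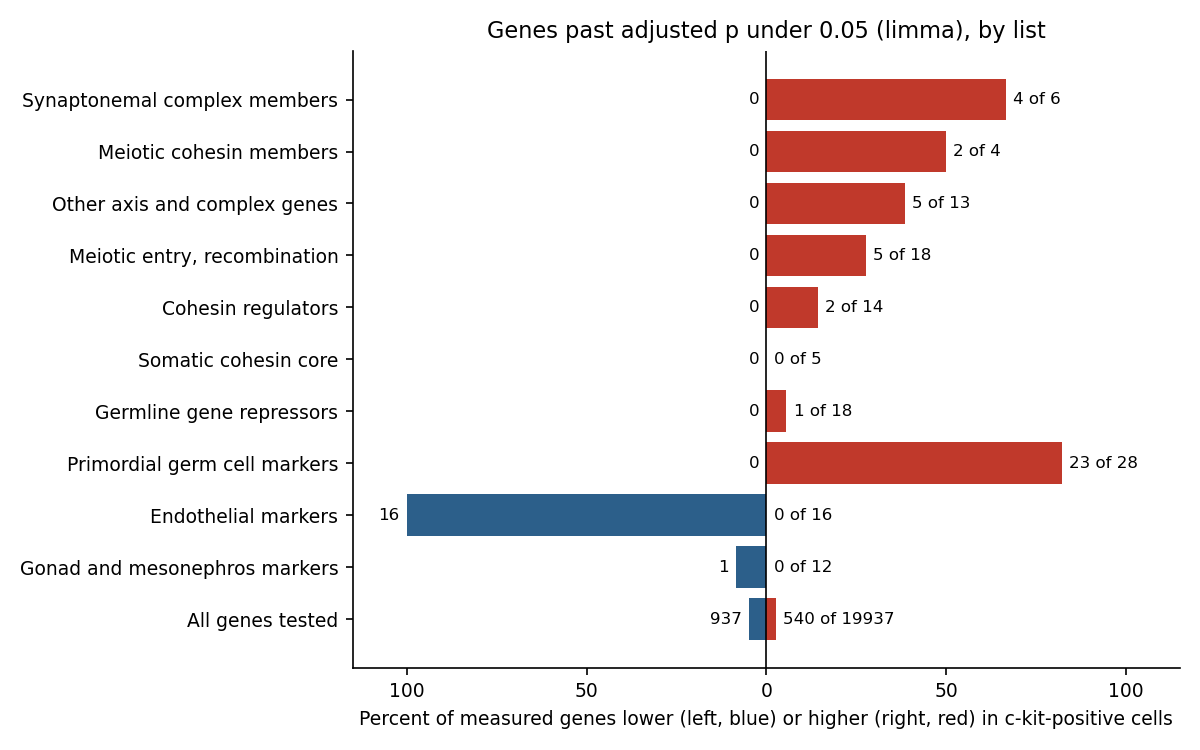
Share of the measured genes of each list that were higher (red, right) or lower (blue, left) in c-kit-positive cells at adjusted p under 0.05 in limma, with counts beside the bars. Of the synaptonemal complex members 4 of 6 and of the meiotic cohesin members 2 of 4 were higher, against 540 of 19937 genes.

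Non-member genes were ranked by likeness to Sycp3 over the 6 arrays. Gene models known only by a number, clone name or accession, and small RNA genes, were left out. Of the rest, the most like Sycp3 were Ccnb1ip1, Asz1, Dazl, Prdm14 and Dapl1. After centring each gene on its own mean, their root mean square differences from Sycp3 were 0.15, 0.31, 0.33, 0.34 and 0.35 (log2, over 18261 candidates). Smc1b was at 0.34 and Stag3 at 0.48 by the same measure, while Rec8 and Rad21l were at 1.14 and 1.17. Ccnb1ip1 was at 7.12, 7.08 and 7.33 on c-kit-positive arrays, against 5.23, 4.80 and 4.56 on c-kit-negative arrays. With 6 arrays in 2 groups this likeness mainly reflects the difference between the populations.

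Markers of the cell types that the gate could hold were examined on the same arrays. Of 28 primordial germ cell markers 23 rose and none fell (median 1.19), including Dazl (3.60-fold), Prdm14 (3.83-fold) and Ddx4 (3.23-fold). Their mean was 8.22, 7.95 and 8.08 on c-kit-positive and 6.81, 6.92 and 6.92 on c-kit-negative arrays. Kit, on whose protein the cells were separated and which is in that list, was 2.51-fold higher. All 16 endothelial markers were lower (median -2.08), with means of 6.05 to 6.30 against 8.64 to 8.71. Pecam1, the gene of CD31, was at 9.13 and 10.02, and Ptprc, the gene of CD45, at 8.52 and 8.75 (means of c-kit-positive and c-kit-negative cells). The part of these cell types in the members' differences was not tested.

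In direction, no mesenchymal or macrophage marker had a positive difference, and all 14 measured replication and mitosis genes had one (median 0.28). Over all genes tested, 12177 of 19937 had a positive difference. Erythroid, haematopoietic, and gonadal and mesonephric genes went both ways. Smaller shares of these lists passed the threshold in 1 direction than of the germ cell and endothelial markers. Of 10 mesenchymal markers 7 were lower, of 12 macrophage markers 3 (1 when c-kit-positive replicate 1 was dropped, 2 when any other array was), and of 12 gonadal and mesonephric markers only Osr1. Of 9 erythroid markers 3 embryonic globins were lower and Ermap higher, and that rise depended on the arrays kept (0 higher when c-kit-positive replicate 2 or 3, or any single c-kit-negative array, was dropped, and 2 when c-kit-positive replicate 1 was). Of 14 haematopoietic progenitor genes 4 rose and 1 fell. The rises included Myb (3.40-fold), Adgrg1 (3.34-fold) and Hlf (2.16-fold), and Cd34 was 2.46-fold lower. Of 14 replication and mitosis genes 3 rose. Mean levels on c-kit-positive against c-kit-negative arrays were 5.23 to 5.32 against 6.45 to 6.77 for mesenchyme, 5.74 to 5.89 against 6.25 to 7.31 for macrophages and 5.33 to 5.38 against 5.39 to 5.58 for gonad and mesonephros.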

How the data were processed

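The values are log2 signals that the authors made with RMA, per the submitters' processing notes. RMA subtracts background, equalises the distributions of the arrays and combines probes into probe sets; its version and settings were not given in any source used here. The labels' protocols describe a digest with 0.1% collagenase and amplification of 5 ng of RNA per sample before labelling, a step that can compress ratios. Of 34760 probe sets, 21640 carried 1 gene symbol in the platform annotation, 1321 several and 11799 none listed. They covered 19937 genes, each represented by its brightest probe set (highest mean of the 6 arrays). Array medians were 5.42 to 5.52.

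The test was limma 3.58.1 (R 4.3.3), with lmFit, then eBayes, two-sided, unfiltered and unblocked. P-values of all 19937 genes were adjusted together by Benjamini-Hochberg, and genes under 0.05 were called. The fit was also tested on simulated data, in which 50 genes each were shifted by 0.5, 1, 2 or 3 log2 units. It recovered 2, 36, 50 and 50 of them. Shifts of 0.5 units thus mostly went uncalled there. Of 149 genes called in the simulation 11 were false calls. Fewer genes were shifted there than the 540 higher and 937 lower calls in the data, so recovery in the data may differ. Paired subunits were compared with exact permutation tests (SciPy 1.17.1). Motifs were searched as exact letters on both strands of the RefSeq promoters. The members and the lists were chosen with earlier results of these data known. Named genes are all members, the somatic cohesin core, the genes of the sort gate, up to 4 genes of smallest p from each other list, and the 5 genes most like Sycp3; others are marked in the text. The alternatives tried were quantile normalization, median centring, filters that removed the dimmest 30 or 50 percent, the mean of a gene's probe sets, all probe sets, a trended robust prior, array weights, no variance moderation, the replicate number as a block, and leaving out each array.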

Additional observations from a re-analysis of the deposited data

How the results depend on the processing

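Sycp3 and Smc1b passed under all 16 alternatives. Sycp1 passed under all 14 in which it was tested, but both filters on dim genes removed it. The count of members higher was 6 under median centring, quantile normalization, the mean of probe sets and array weights, 5 with all probe sets or without the dimmest 30 percent of genes, 4 without the dimmest 50 percent and 7 with the trended prior. Without variance moderation it was 3, since Syce1, Syce2 and Stag3 no longer passed (adjusted p = 0.106, 0.0603 and 0.126). Syce1 was also lost with all probe sets (adjusted p = 0.054), and Sycp2 passed with the trended prior (adjusted p = 0.0421). With 1 array left out, 5 to 8 members were higher. No member was lower under any alternative. Over all genes 202 were higher with all probe sets, 66 higher and 216 lower without variance moderation, and 276 to 369 higher with 1 array left out. The filters on dim genes removed some members, which then had no value. With the replicate block 7 members were higher, Sycp2 included (adjusted p = 0.0472, limma), with 476 genes higher and 879 lower in the whole table. The 5 rises among genes of meiotic entry and recombination became 3 with the replicate block and 2 with all probe sets. Without variance moderation 0 of them were left. Same-numbered arrays deviated together with correlations of only 0.00071, 0.0239 and 0.059, so the numbers were not taken to pair the samples. The cause of these changes was not tested. With 3 arrays a population, their number limits the precision. Tex12 and Rad21l lay below the lower quartile of every array (4.14 to 4.28), and fold changes may be understated for genes that dim.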
